A study of Mus musculus with 12 samples.

Results

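The 10 genes described here write, copy, remove or protect methyl groups on cytosine in DNA: Dnmt1, Dnmt3a, Dnmt3b, Dnmt3l, Uhrf1, Tet1, Tet2, Tet3, Tdg and Zfp57. They were chosen by name, with earlier results of these data known, and all 10 were found among the 22619 gene symbols of the mouse expression tables analysed. RNA was captured by its poly(A) tail and turned into 12 libraries by Smart-seq2, a full-length cDNA method for small amounts of RNA. The embryos were C57BL/6: Wild type (control embryo, n = 2), Dcaf11 knock out (KO embryo, n = 3) and Dcaf11 knock out whose titles also say arrest (KO arrest, n = 3). The embryonic stem cells (ESC) were 129Sv: Wild type (control ESC, n = 2) and Dcaf11 knock down (KD ESC, n = 2). The protein DCAF11 picks substrates for a cullin ubiquitin ligase. The labels do not give the embryos' stage, age or sex, the number of cells per library, the exons deleted, the knock-down reagent or the ESC line. Nor do they tell if the libraries within a group are from different embryos or cultures, and a p-value here therefore rests on spread that could be technical only.

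In mammals, DNMT3A and DNMT3B place new methyl groups on CpG dinucleotides with the help of DNMT3L, and DNMT1, brought to newly copied DNA by UHRF1, restores the pattern after replication. TET1, TET2 and TET3 oxidize 5-methylcytosine, and the glycosylase TDG cuts out the more oxidized forms so that base excision repair can put back an unmodified cytosine. After fertilization most methylation of both parental genomes is lost, while imprinted regions are shielded by ZFP57, a zinc finger protein that brings TRIM28 (KAP1) to methylated imprinting control regions. TET3 is the TET enzyme known from the oocyte and zygote, and TET1 and TET2 are those of ESC.

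The promoters of these genes are themselves CpG sequences of very different density, and some of the genes have more than 1 start site, which a value per gene cannot separate. Shown are 250 bases upstream of a start site in the RefSeq promoter table of build GRCm38.p6, 5′ to 3′ on the gene's own strand, with each CpG in capitals. All 10 genes were matched in that table. The windows shown lie outside annotated exons and were picked to show low, middle and high CpG counts among the 10 genes. Dnmt1 is known to start in oocytes upstream of the start used in somatic cells, so 2 of its 3 windows are given. No claim is made on which start was in use. The third window overlaps an annotated exon and is not shown.
Dnmt1, first start site, chr9:20959889-20960138, minus strand: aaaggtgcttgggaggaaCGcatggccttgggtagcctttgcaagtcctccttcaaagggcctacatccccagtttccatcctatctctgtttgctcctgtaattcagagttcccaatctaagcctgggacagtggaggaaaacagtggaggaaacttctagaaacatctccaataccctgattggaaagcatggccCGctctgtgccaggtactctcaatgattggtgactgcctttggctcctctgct
Dnmt1, the next start site, chr9:20952980-20953229, minus strand: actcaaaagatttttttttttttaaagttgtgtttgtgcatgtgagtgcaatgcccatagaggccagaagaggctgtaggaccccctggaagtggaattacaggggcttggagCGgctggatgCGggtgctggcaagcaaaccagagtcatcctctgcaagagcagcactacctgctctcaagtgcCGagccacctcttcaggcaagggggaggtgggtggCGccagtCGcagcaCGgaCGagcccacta
Dnmt3b, chr2:153649199-153649448, plus strand: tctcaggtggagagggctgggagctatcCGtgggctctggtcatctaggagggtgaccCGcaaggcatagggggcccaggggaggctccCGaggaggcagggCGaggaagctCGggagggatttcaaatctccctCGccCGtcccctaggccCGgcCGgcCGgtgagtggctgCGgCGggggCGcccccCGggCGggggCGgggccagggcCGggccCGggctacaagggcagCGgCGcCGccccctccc
Uhrf1, the downstream start site, chr17:56304063-56304312, plus strand: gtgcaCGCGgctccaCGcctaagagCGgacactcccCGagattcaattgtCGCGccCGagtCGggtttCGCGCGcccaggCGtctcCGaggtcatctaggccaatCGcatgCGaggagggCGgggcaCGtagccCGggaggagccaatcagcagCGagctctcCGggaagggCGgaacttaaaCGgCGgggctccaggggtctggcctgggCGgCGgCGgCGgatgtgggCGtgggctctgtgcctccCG
Tet2, chr3:133544391-133544640, minus strand: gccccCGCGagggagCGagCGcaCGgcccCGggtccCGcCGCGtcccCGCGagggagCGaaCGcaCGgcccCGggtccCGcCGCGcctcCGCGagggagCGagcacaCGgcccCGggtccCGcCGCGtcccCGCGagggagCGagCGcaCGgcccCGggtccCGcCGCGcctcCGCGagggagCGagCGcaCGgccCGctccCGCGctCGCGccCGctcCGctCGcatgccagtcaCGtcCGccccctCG
Zfp57, first start site, chr17:37000913-37001162, plus strand: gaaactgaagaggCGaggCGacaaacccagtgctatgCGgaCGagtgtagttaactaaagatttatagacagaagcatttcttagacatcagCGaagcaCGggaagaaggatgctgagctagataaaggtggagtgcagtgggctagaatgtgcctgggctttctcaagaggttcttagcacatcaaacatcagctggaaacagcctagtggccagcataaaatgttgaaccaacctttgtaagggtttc
The first Dnmt1 window holds 2 CpG and the next one 7, and 18.8% and 53.7% of all promoter windows of this length hold fewer. The third Dnmt1 window, not shown, holds 26, and 90.4% hold fewer. The Zfp57 window, with 6 CpG, sits at the median of the 32851 windows, whose lower quartile is 2 and upper quartile 16. Dnmt3b has 21 CpG, Uhrf1 30 and Tet2 51, and 83.7%, 94.1% and 99.9% of windows hold fewer. These counts describe the letters only, and no methylation was measured here.

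Expression was deposited as FPKM (reads per length of transcript and per amount of reads), without counts. The coverage of a gene at 1 FPKM, which moves with depth, ranged from 0.373 to 2.01 across libraries. It was 2.01 and 1.22 in control embryos, 0.585 to 1.32 in KO embryos, 0.373 to 0.659 in KO arrest and 0.566 to 1.08 in ESC. The number of genes at 1 FPKM or more ranged from 8535 to 12061, apart from control embryo 1 with 6573, which had the highest coverage. That library stands apart from the others, and it is 1 of only 2 controls, so differences from the control embryos that change when it is left out are given both ways. Dcaf11 itself was at 2.82 and 14.3 FPKM in control embryos, 3.99, 2.84 and 0.184 in KO embryos and 4.43, 0.422 and 6.02 in KO arrest libraries, so its level per gene does not separate the embryo groups, and whether the deleted part carries these reads is not known. In ESC it was at 6.48 and 4.52 in the controls and 1.69 and 1.83 after knock down. All 12 pluripotency markers listed reached 1 FPKM in every ESC library. They summed to 3689 to 3803 FPKM in control ESC and 2868 to 3177 in KD ESC, although Sox2 and Fgf4 were higher in both KD libraries. Esrrb was at 255 and 253 FPKM in control ESC, 28.6 in KD ESC 1 and 244 in KD ESC 2. Markers of the oocyte and early embryo summed to 19125 to 60090 FPKM in the embryo libraries and 77.8 to 93.7 in ESC. In KO arrest that sum is mostly Dppa3: without it the other markers summed to 36675 to 47692 FPKM in control embryos, 11847 to 17421 in KO embryos, 891 to 1534 in KO arrest and 41.4 to 74.7 in ESC. In KO arrest 5 of the 15 (Gdf9, Bmp15, Omt2a, Omt2b and Oog1) lay below all other embryo libraries, and 2 (Khdc3 and Dppa3) lay above them. Omt2a was at 15257 and 18938 FPKM in control embryos, 4404 to 6708 in KO embryos and 335 to 683 in KO arrest. Fibroblast and blood markers were present in both non-arrested embryo groups: the 8 fibroblast markers summed to 17.1 to 95.3 FPKM there and 0.0513 to 2.90 in KO arrest libraries. In ESC the same 8 summed to 82.9 to 84.1 FPKM in the controls and 46.0 to 57.8 after knock down, without overlap. The 5 blood markers found summed to 63.9 to 335 FPKM in the control and KO embryos and had a listed value of 0 throughout KO arrest and ESC. The part of these markers in the differences below was not tested.

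Differences were tested with limma on log2(FPKM + 1), with p-values adjusted over all genes tested, and a gene was called at an adjusted p under 0.05. Between KO and control embryos 0 of the 10 genes were called, where 6.36% of all genes tested were (4.86% higher and 1.5% lower), and 0 had an unadjusted p under 0.05. Between KO arrest and control embryos 2 of 10 were called, Zfp57 lower and Tdg higher, against 25.2% of all genes (8.87% lower and 16.4% higher). Tdg passed the filter only through the KO arrest libraries and so had to differ, and its call supports nothing. Between KO arrest and KO embryos 0 of 10 were called, against 8.58% of all genes (4.93% higher and 3.65% lower), though Tet3, Tdg and Zfp57 had an unadjusted p under 0.05. Knock down in ESC gave 1 call of 10, Dnmt3b lower, against 6.23% of all genes (3.64% lower and 2.59% higher). The control embryos and control ESC differed in 8 of 10 genes, against 53.4% of all genes (40.8% lower and 12.6% higher), with 6 of the 10 lower and Tet3 and Zfp57 higher. Embryos and ESC differ both in mouse strain and in material, which cannot be told apart. With 10 genes, counts of 0 to 2 are near these background shares and are not read as a result about the group. Without control embryo 1 the counts were 0 for KO embryos, 2 for KO arrest against control (Zfp57 and Tet3), 1 for KO arrest against KO embryos (Zfp57) and 9 for embryos against ESC. The comparisons that use control embryos share those libraries. The KO arrest libraries differ from the other embryos in the fibroblast and blood markers given above as well as in title. A lower value in these libraries can be fewer cells of a type or less RNA of the gene per cell. FPKM is also relative to the reads of all other genes in a library. These cannot be told apart.

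**Figure D1:**
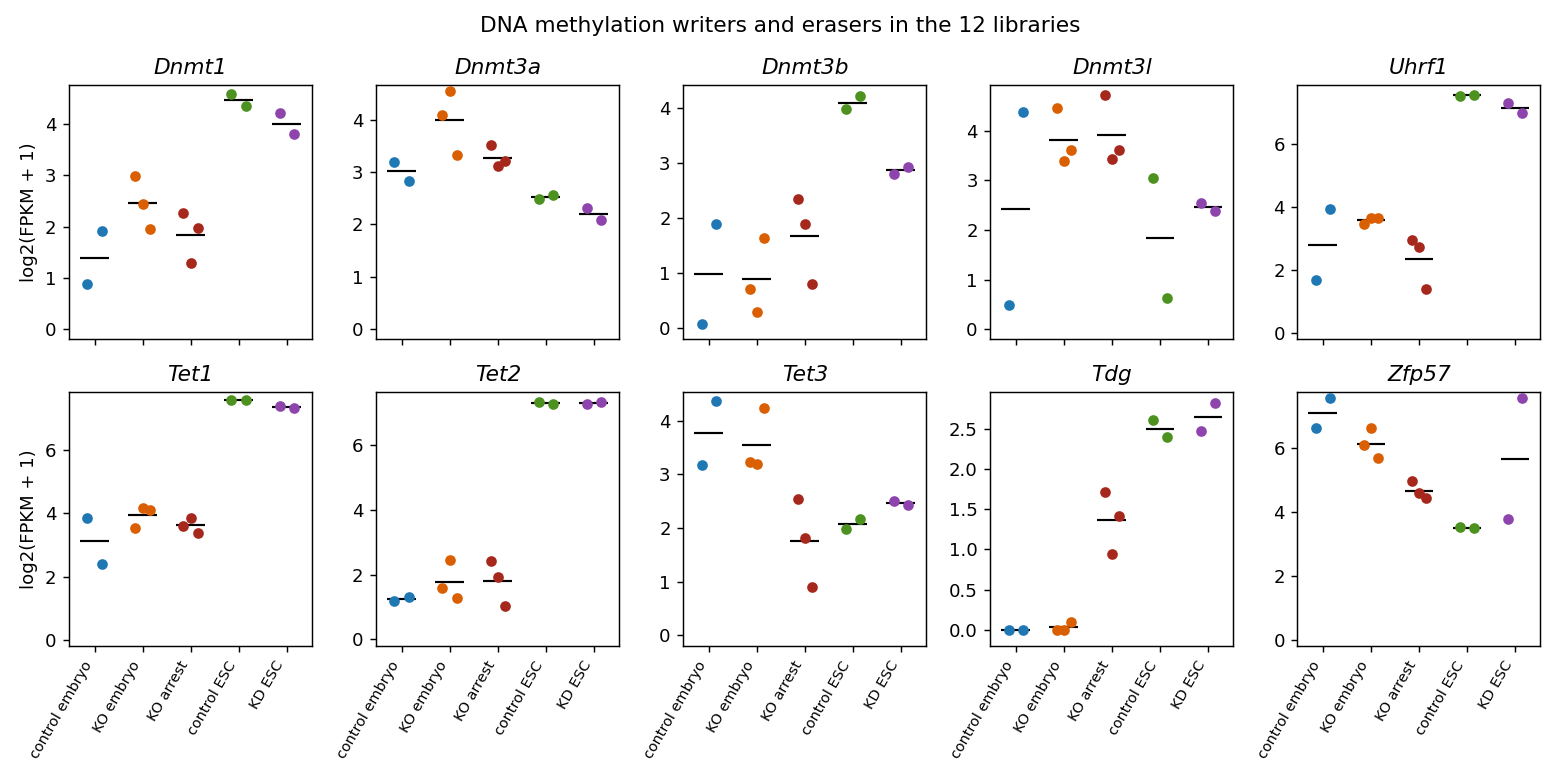
Level of each gene, as log2(FPKM + 1), in the 12 libraries (points) with the group mean (bar). The y axis of each panel has its own scale. Tet1, Tet2 and Uhrf1 stand far higher in ESC than in embryos, Tet3 is low in KO arrest libraries, and KD ESC 2 reaches the embryo level of Zfp57 while KD ESC 1 does not.

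The maintenance pair, Dnmt1 and Uhrf1, was far lower in embryos than in ESC and was not called in any comparison of Dcaf11 loss. Dnmt1 (mm9 chr9:20711650-20764332, minus strand) was at 0.828 and 2.77 FPKM in control embryos, 6.93, 4.40 and 2.89 in KO embryos, 3.82, 1.44 and 2.90 in KO arrest libraries, 22.9 and 19.5 in control ESC and 17.5 and 13.0 in KD ESC. All 8 embryo libraries lay below all 4 ESC libraries. The 3 KO embryos lay just above both control embryos, 2.89 against 2.77 at the nearest, and the difference was 1.07 ± 0.66 (SE) on the log2 scale with an adjusted p of 0.379 by limma. In the KO arrest libraries Dnmt1 overlapped both other embryo groups. In ESC the knock-down libraries lay below the controls without overlap, by −0.46 ± 0.18 (adjusted p = 0.187 by limma, 95% interval −0.95 to 0.03). Control embryos were lower than control ESC by −3.07 ± 0.52 (adjusted p = 0.00076 by limma), and in mean FPKM they stood at 0.0849 of the ESC level. Uhrf1 (mm9 chr17:56442760-56462909, plus strand) encodes the reader of hemimethylated DNA that recruits DNMT1. It was at 2.19 and 14.4 FPKM in control embryos, 10.2, 11.6 and 11.7 in KO embryos, 6.80, 5.64 and 1.61 in KO arrest libraries, 184 and 190 in control ESC and 158 and 126 in KD ESC. The KO embryos were the most alike of the embryo libraries, 11.2 ± 0.87 FPKM (SD, n = 3), and every KO arrest value lay below them. That difference was −1.24 ± 0.69 (adjusted p = 0.278 by limma). The 2 control embryos lay far apart, and the KO arrest difference from control depends on which of them is used: −1.59 without control embryo 1 and 0.69 without control embryo 2. Uhrf1 fell from control ESC to control embryos by −4.74 ± 0.70 (adjusted p = 0.00034 by limma), with −3.61 without control embryo 1 (adjusted p = 0.0011). After knock down in ESC both libraries lay below both controls, by −0.40 ± 0.13, which was not called (adjusted p = 0.122 by limma).

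The de novo group did not move as 1. Dnmt3a (mm9 chr12:3806980-3914443, plus strand), the catalytic enzyme that sets methylation in the oocyte, was at 8.22 and 6.14 FPKM in control embryos, 16.1, 22.4 and 9.11 in KO embryos, 10.4, 7.71 and 8.27 in KO arrest libraries, 4.62 and 4.89 in control ESC and 3.95 and 3.23 in KD ESC. All embryo libraries lay above all ESC libraries, the reverse of Dnmt1, but control embryos and control ESC differed by only 0.50 ± 0.43 (adjusted p = 0.354 by limma), which is above the median of all genes in that comparison, −1.01. KO embryos lay above both controls, 15.9 ± 6.66 against 7.18 ± 1.47 FPKM (SD, n = 3 and 2), a log2 difference of 0.97 ± 0.55 (adjusted p = 0.326 by limma). Dnmt3b (mm9 chr2:153475190-153513466, plus strand), the de novo enzyme of the implanting embryo, was at 0.0566 and 2.73 FPKM in control embryos, 0.639, 0.232 and 2.12 in KO embryos, 4.07, 2.71 and 0.744 in KO arrest libraries, 14.8 and 17.4 in control ESC and 5.99 and 6.54 in KD ESC. The 3 embryo groups overlapped, and none of their differences was called, with adjusted p-values of 0.959, 0.532 and 0.502 by limma. Dnmt3b fell on knock down: both KD ESC libraries lay at well under the control values, 6.26 ± 0.39 against 16.1 ± 1.88 FPKM (SD, n = 2 each), a difference of −1.23 ± 0.14 (adjusted p = 0.0317 by limma). The size held between −1.12 and −1.34 when each library was left out. The call was lost without control ESC 1 (−1.34, adjusted p = 0.166), without control ESC 2 (−1.12, adjusted p = 0.180) and without KD ESC 1 (−1.18, adjusted p = 0.0628), and also when the 12 libraries were fitted together (adjusted p = 1). With the replicate number as a block the same difference had an adjusted p of 0.0811. Control embryos were lower than control ESC by −3.10 ± 0.70 (adjusted p = 0.0041 by limma), or −2.19 without control embryo 1 (adjusted p = 0.0290).

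Dnmt3l (mm9 chr10:77505032-77526360, plus strand), the cofactor without catalytic activity, was at 0.403 and 19.7 FPKM in control embryos, 21.0, 9.49 and 11.1 in KO embryos, 25.1, 9.79 and 11.2 in KO arrest libraries, 7.30 and 0.544 in control ESC and 4.81 and 4.23 in KD ESC. The 6 knock-out embryo libraries lay above all 4 ESC libraries, and control embryo 2 was among them while control embryo 1 was the lowest of the 12. The 2 control ESC libraries also disagreed, by −2.43 on the log2 scale, a gap that only 100 of 8455 genes with at least 5 FPKM in either library (1.18%) equalled or exceeded. No difference of Dnmt3l was called. The KO arrest difference from control was 1.48 ± 0.97 with both controls, −0.46 without control embryo 1, and 3.43 (adjusted p = 0.0060 by limma) without control embryo 2. KO embryos gave 1.39 ± 0.97 with both controls, −0.56 without control embryo 1, and 3.33 (adjusted p = 0.0129 by limma) without control embryo 2. The gene overlaps Aire on the other strand. Aire was at 3.68 FPKM in control embryo 1 and at or below 2.86 in the others, and the strand of the reads is not stated, so the 2 cannot be told apart where they overlap.

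The TET enzymes split into 1 that is embryo-high and 2 that are ESC-high. Tet1 (mm9 chr10:62267318-62342762, minus strand) was at 13.6 and 4.32 FPKM in control embryos, 10.7, 17.2 and 16.1 in KO embryos, 11.2, 13.5 and 9.46 in KO arrest libraries, 193 and 191 in control ESC and 166 and 161 in KD ESC. In 3 of the 4 ESC libraries it was the highest of the 10 genes, and in both control ESC libraries 99.1% of all genes lay below it. The KD ESC libraries lay below the controls without overlap, 164 ± 4.01 against 192 ± 1.37 FPKM (SD, n = 2 each), a small difference of −0.23 ± 0.06 (adjusted p = 0.103 by limma). Tet2 (mm9 chr3:133126641-133207354, minus strand), whose promoter has the densest CpG of those shown, was at 1.29 and 1.46 FPKM in control embryos, 2.01, 4.48 and 1.40 in KO embryos, 4.30, 2.79 and 1.04 in KO arrest libraries, 159 and 150 in control ESC and 152 and 159 in KD ESC. It had the widest gap of the 10 genes between materials. Control embryos lay below control ESC by −6.04 ± 0.51 for Tet2 (adjusted p = 1.41e-05 by limma) and −4.45 ± 0.46 for Tet1 (adjusted p = 3.75e-05). Knock down left Tet2 with a difference of 0.01 ± 0.07 (adjusted p = 0.966 by limma, 95% interval −0.19 to 0.20).

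Tet3 (mm9 chr6:83312368-83391672, minus strand), the oocyte and zygote enzyme, was at 8.07 and 19.7 FPKM in control embryos, 8.44, 8.13 and 17.8 in KO embryos, 4.79, 2.53 and 0.874 in KO arrest libraries, 2.96 and 3.49 in control ESC and 4.68 and 4.41 in KD ESC. Every KO arrest value lay below every value of the other embryo groups and their range took in that of all 4 ESC libraries. The difference from control embryos was −2.02 ± 0.70 with an adjusted p of 0.0558 by limma, which did not pass, and −1.80 ± 0.62 from KO embryos (adjusted p = 0.0997). Under other settings it passed against the controls after median-of-ratios scaling (−2.35, adjusted p = 0.0289), after quantile normalization (−2.48, adjusted p = 0.0158), in TPM (−2.70, adjusted p = 0.0368), with the ESC in the same fit (−2.02, adjusted p = 0.0224), without control embryo 1 (−2.62, adjusted p = 0.0470) and without KO arrest 1 (−2.41, adjusted p = 0.0464). It did not pass with a pseudocount of 0.1 (adjusted p = 0.0671), without the filter (0.0992), with the replicate block (0.134), with only the groups compared (0.106) or without control embryo 2 (−1.43, adjusted p = 0.194). Nor did it without KO embryo 1, 2 or 3 (0.0717 to 0.0790), KO arrest 2 (0.113) or KO arrest 3 (−1.60, adjusted p = 0.152). Of the 15 oocyte and early embryo markers, Gdf9, Bmp15, Omt2a, Omt2b and Oog1 were also lowest in KO arrest among embryo libraries. Khdc3 and Dppa3 were highest there, and the rest did not separate KO arrest from the other embryos. The part of these markers in the low Tet3 values was not tested. Control embryos were higher than control ESC by 1.70 ± 0.61 (adjusted p = 0.0393 by limma). That call was lost without control embryo 2 (1.10, adjusted p = 0.187), without control ESC 1 (1.61, adjusted p = 0.149), without control ESC 2 (1.79, adjusted p = 0.113), and without KO arrest 2, KD ESC 1 or KD ESC 2, at adjusted p-values of 0.0521, 0.0611 and 0.0610. With the replicate number as a block its adjusted p was 0.0697, with a pseudocount of 0.1 it was 0.0689, without the filter 0.0523 and with only the groups compared 0.0791.

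Since FPKM is per length, the TET levels of 1 library can be set against each other, and such a share does not depend on how libraries are scaled. Tet3 made up 35.2% and 77.3% of summed TET FPKM in control embryos, 40.0%, 27.3% and 50.4% in KO embryos, and 23.6%, 13.4% and 7.68% in KO arrest libraries. In ESC it made up 0.834% and 1.01% (control) and 1.45% and 1.36% (KD). The KO arrest shares did not overlap those of either other embryo group. They were −41.3 percentage points from the controls (exact permutation test, two-sided p = 0.2, the smallest that 2 against 3 allows) and −24.3 from the KO embryos (exact two-sided p = 0.1, the smallest that 3 against 3 allows). Dropping control embryo 1 made the first of these −62.4, and dropping control embryo 2 made it −20.3. Tet1 made up 59.2% and 16.9% in control embryos, 45.6% to 57.7% in KO embryos and 55.3%, 71.7% and 83.2% in KO arrest, and these groups overlap. Among the 3 catalytic DNMT genes, Dnmt3a took 52.8% to 90.3% in the 8 embryo libraries and 10.9% to 14.4% in ESC, where Dnmt1 took 46.6% to 63.8%. The Dnmt1 share was 10.1 percentage points higher in KD than in control ESC, without overlap (exact two-sided p = 0.333, the smallest that 2 against 2 allows). Embryo groups overlapped in the Dnmt1 share, with 16.4%, 22.0% and 19.1% as means of control, KO and KO arrest. The ratio of summed TET to summed DNMT FPKM was 0.893 to 2.52 in embryo libraries and 8.26 to 14.2 in ESC, and within ESC the 2 KD libraries, 11.8 and 14.2, lay above the controls, 8.40 and 8.26.

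**Figure D2:**
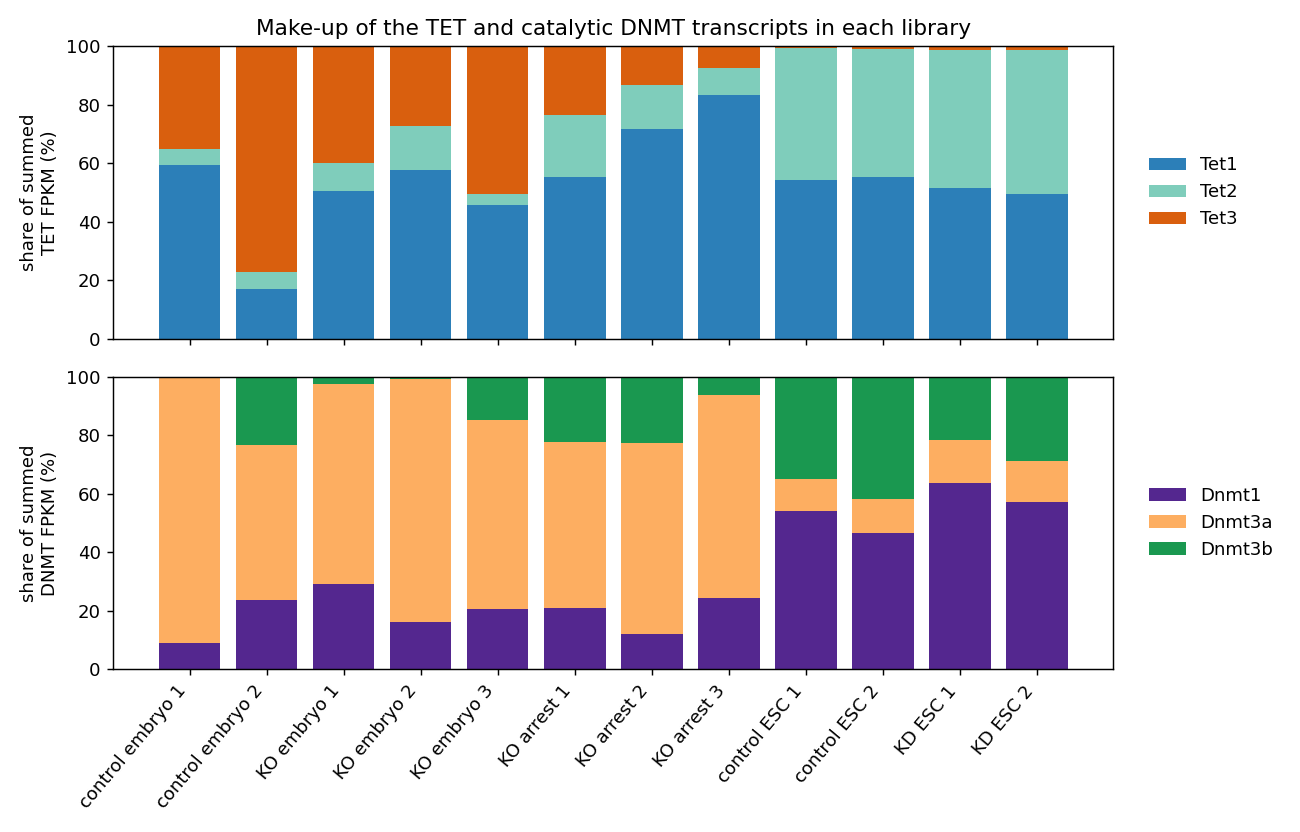
Share of each gene, in percent, of the summed TET FPKM (upper panel) and of the summed catalytic DNMT FPKM (lower panel), 1 bar per library. Tet3 fills 27.3% to 77.3% of the TET bar in control and KO embryos, 7.68% to 23.6% in KO arrest and at most 1.45% in ESC.

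Tdg (mm9 chr10:82092583-82113239, plus strand), the glycosylase that removes oxidized cytosine, was listed at 0 in both control embryos and in KO embryos 1 and 2, and at 0.0665 FPKM in KO embryo 3. In the KO arrest libraries it was at 2.29, 0.929 and 1.67, in control ESC at 5.08 and 4.28 and in KD ESC at 4.57 and 6.06. Only the KO arrest libraries among the embryos held a level near 1 FPKM or above. The difference from control embryos was called, 1.36 ± 0.45 on the log2(FPKM + 1) scale (adjusted p = 0.0480 by limma), a size set by the pseudocount because the controls are listed at 0. The gene reached 1 FPKM among the embryos only in KO arrest 1 and 3. Without either of these libraries it was under the filter and has no value. Its adjusted p was 0.134 without control embryo 1, 0.109 without control embryo 2, between 0.0679 and 0.0792 when any 1 KO embryo library was left out, 0.129 with the replicate number as a block, 0.121 with only the groups compared, and 0.0504 and 0.0613 with median-of-ratios scaling and quantile normalization. Against the KO embryos it was 1.33 ± 0.40 (adjusted p = 0.0666). Control embryos lay below control ESC by −2.50 ± 0.32 (adjusted p = 0.00015 by limma). Tdg overlaps Gm9855 on its own strand, listed at 0 in all 12 libraries, and Glt8d2 on the other, which reached 0.959 FPKM in KO arrest 1 and was listed at 0 in KO arrest 2 and 3. It also has near-identical copies in the genome, so its values are uncertain.

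Zfp57 (mm9 chr17:37138108-37147674, plus strand), which protects methylation at imprinted regions, was the highest of the 10 genes in all 8 embryo libraries. It was at 96.3 and 186 FPKM in control embryos, 66.6, 97.1 and 49.7 in KO embryos, 30.2, 22.9 and 20.7 in KO arrest libraries, 10.5 and 10.1 in control ESC and 12.6 and 186 in KD ESC. Zfp57 fell in KO arrest libraries, which lay below all other embryo libraries, with 24.6 ± 4.95 FPKM against 141 ± 63.8 in the controls (SD, n = 3 and 2). The difference was −2.42 ± 0.46 (adjusted p = 0.0044 by limma, 0.174 of the control mean). Leaving out control embryo 1 gave −2.89, leaving out control embryo 2 gave −1.94, and it was called when any 1 library was left out. It had an adjusted p of 0.0628 when embryos and ESC were fitted together. Of the 15 oocyte and early embryo markers, the 5 lowest in KO arrest, named above, moved the same way. Khdc3 and Dppa3 moved the other way, and the rest did not separate KO arrest from the other embryos. The part of these markers in the fall of Zfp57 was not tested. Against the KO embryos it was −1.46 ± 0.41, just short of the threshold (adjusted p = 0.0534 by limma), and it passed without control embryo 1 or 2 in the fit (adjusted p = 0.0191 and 0.0187), in TPM (−1.92, adjusted p = 0.0268) with only the groups compared (adjusted p = 0.0203) and after quantile normalization (−1.62, adjusted p = 0.0292). It did not pass with a pseudocount of 0.1 (0.0636), without the filter (0.0863), after median-of-ratios scaling (0.0611), with the replicate block (0.0890), with all 12 libraries in 1 fit (0.247) or when any 1 KO embryo or KO arrest library was left out (0.0681 to 0.185). The KO embryos overlapped the controls through KO embryo 2, which was above control embryo 1, with a difference of −0.96 ± 0.46 (adjusted p = 0.249). Control embryos were higher than control ESC by 3.58 ± 0.94 (adjusted p = 0.0093 by limma).

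The 2 KD ESC libraries disagreed on Zfp57. KD ESC 1 lay at the control level and KD ESC 2 at the level of control embryo 2, a gap of 3.78 on the log2 scale that 36 of 8220 genes with at least 5 FPKM in either library (0.438%) equalled or exceeded. The difference from control ESC was 2.16 ± 1.28 (adjusted p = 0.325 by limma), 0.27 without KD ESC 2 and 4.04 without KD ESC 1. Genes beside Zfp57 on chromosome 17 had smaller gaps. H2-M5 was at 25.0 and 24.3 FPKM in KD ESC 1 and 2, Ppp1r11 at 14.6 and 16.9, Gabbr1 at 9.81 and 9.30, and Znrd1 at 1.19 and 6.03. Markers of the oocyte and early embryo summed to 93.7 FPKM in KD ESC 1, 90.6 in KD ESC 2 and 77.8 and 82.4 in the control ESC. Single markers went both ways. Dppa3 was at 52.3 and 45.2 FPKM in KD ESC 1 and 2, against 10.7 and 7.69 in the controls. Khdc3 was at 16.6 and 18.9 FPKM in KD ESC 1 and 2, against 41.8 and 46.9 in the controls.

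The differences of the 10 genes not yet given were all short of the threshold. In KO against control embryos they were −0.10 for Dnmt3b, 0.79 for Uhrf1, 0.80 for Tet1, 0.52 for Tet2, −0.22 for Tet3 and 0.03 for Tdg, with adjusted p-values from 0.451 to 0.980 by limma. For KO arrest and control embryos they were 0.45 for Dnmt1, 0.26 for Dnmt3a, 0.69 for Dnmt3b, −0.45 for Uhrf1, 0.48 for Tet1 and 0.54 for Tet2, with adjusted p-values from 0.532 to 0.751, and the sign of Dnmt3a turned in TPM and after either other scaling. Between KO arrest and KO embryos they were −0.62 for Dnmt1, −0.71 for Dnmt3a, 0.79 for Dnmt3b, 0.10 for Dnmt3l, −0.32 for Tet1 and 0.02 for Tet2, with adjusted p-values from 0.395 to 0.991. In KD against control ESC they were −0.33 for Dnmt3a, 0.62 for Dnmt3l, 0.39 for Tet3 and 0.15 for Tdg, with adjusted p-values from 0.192 to 0.648. Control embryos and control ESC differed in Dnmt3l by 0.59 ± 1.15 (adjusted p = 0.689). No member that was short of the threshold is shown to be unchanged by this.

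**Figure D3:**
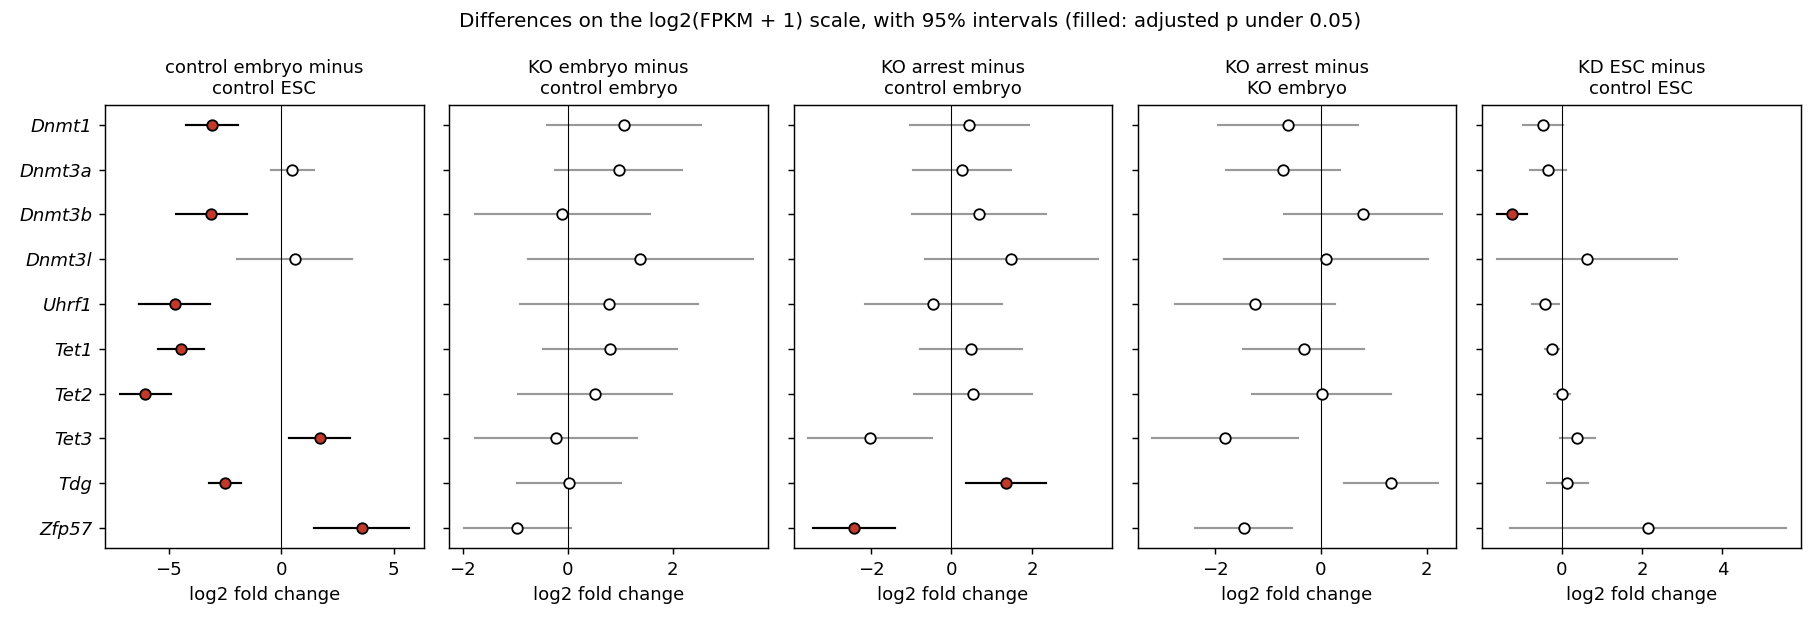
Log2 differences of the 10 genes in 5 comparisons, on the log2(FPKM + 1) scale, with 95% intervals. Filled points have an adjusted p under 0.05, and each panel has its own x axis. Filled points are 8 in the embryo-to-ESC panel, 2 (Tdg and Zfp57) for KO arrest against control embryo, 1 (Dnmt3b) for KD ESC, and 0 in the other panels.

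Whether Dcaf11 knock out in embryos and knock down in ESC acted differently was tested as a difference of the 2 effects. Knock out against knock down, strain and material differ together in this test and cannot be told apart. For KO embryos 0 of 10 genes differed from the ESC effect, where 2.69% of all genes did (2.06% higher and 0.623% lower), and Dnmt3a and Zfp57 had an unadjusted p under 0.05. The values ran from −3.11 for Zfp57 (adjusted p = 0.231 by limma) to 1.52 for Dnmt1 (adjusted p = 0.287). For KO arrest 1 of 10 differed, where 14% of all genes did (9.07% higher and 4.97% lower). That gene was Zfp57, at −4.57 ± 1.28 (adjusted p = 0.0416 by limma), and the value rests on KD ESC 2: it was −2.68 (adjusted p = 0.0469) without that library and −6.46 without KD ESC 1. Leaving out either control ESC gave adjusted p-values of 0.123 and 0.124, and leaving out control embryo 2 gave 0.0723. Leaving out any 1 KO embryo or KO arrest library gave 0.0520 to 0.0744, and the replicate block −4.40 (adjusted p = 0.0624). Without the filter it was 0.0645 and with only the groups compared 0.0768. Tet3 (−2.42 ± 0.83, adjusted p = 0.0824) and Tdg (1.21 ± 0.44, adjusted p = 0.0932) did not pass, nor did the others, which lay between −0.05 for Uhrf1 and 1.92 for Dnmt3b.

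The order of the groups by mean level repeats this picture gene by gene. Control ESC stood highest for Dnmt1, Dnmt3b, Uhrf1 and Tet1, followed by KD ESC and then by the embryo groups, each of which overlaps the next. Of these 4 only Dnmt3b was called on knock down. Tet2 and Tdg had KD ESC first, overlapping control ESC. Dnmt3a was highest in KO embryos and Dnmt3l in KO arrest, and in both the 3 embryo groups overlap in order and stand before ESC. Tet3 ran from control embryo to KO embryo, which overlap, then without overlap to KD ESC and control ESC, with KO arrest last, overlapping control ESC. Zfp57 ran from control embryo to KD ESC and KO embryo, which overlap in turn, then to KO arrest and control ESC, each without overlap with the group before.

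Partners of maintenance methylation (10 genes) held 1 gene that rose in KO embryos, 2 in KO arrest against control and 0 in KO arrest against KO embryos. On knock down in ESC 1 rose and 1 fell. Over all genes the shares that rose were 4.86%, 16.4% and 4.93% in these 3 embryo comparisons, and in KD ESC 2.59% rose and 3.64% fell. Cdca7, which works with the remodeller HELLS to let methylation be maintained, was at 0.541 and 2.85 FPKM in control embryos, 12.7, 10.4 and 15.4 in KO embryos and 22.4, 23.1 and 10.6 in KO arrest libraries. All 6 knock-out libraries lay above both controls, and both differences were called, 2.49 ± 0.61 (adjusted p = 0.0401 by limma) and 2.94 ± 0.61 (adjusted p = 0.0069). In ESC it was at 48.4 and 41.0 in the controls and 22.5 and 29.2 after knock down. Dppa3 encodes the maternal factor that keeps UHRF1 and DNMT1 off the genome. It was at 4949 and 12398 FPKM in control embryos, 12074, 7278 and 14555 in KO embryos and 21963, 30499 and 25965 in KO arrest libraries, which all lay above the rest. It rose there by 1.73 ± 0.43 (adjusted p = 0.0161 by limma). In ESC it went from 10.7 and 7.69 in the controls to 52.3 and 45.2 after knock down, where it rose by 2.30 ± 0.19 (adjusted p = 0.0253 by limma), without overlap. Hdac1, a deacetylase that binds DNMT1, fell in KD ESC by 1.01 (adjusted p = 0.0330). In control embryos against control ESC 8 partners of the 10 were lower, where 40.8% of all genes were, and Dppa3 was higher by 9.60 ± 0.43 (adjusted p = 1.06e-06).

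De novo and silencing partners (12 genes) had 0 calls in KO embryos, 1 rise in KO arrest against control, 1 fall in KO arrest against KO embryos, and 1 rise and 1 fall in KD ESC. Over all genes 6.36%, 25.2%, 8.58% and 6.23% were called in these 4 comparisons. The rise in KO arrest was Cbx5, the heterochromatin protein HP1α, at 26.0, 39.0 and 21.5 FPKM against 3.18 and 5.43 in the controls (2.48 ± 0.71, adjusted p = 0.0271 by limma). Kdm1b, the demethylase needed to open imprinted regions to methylation in the oocyte, was at 4.67, 4.12 and 6.58 FPKM in KO arrest and 19.1, 27.2 and 17.7 in KO embryos. It fell between the 2 by 1.86 (adjusted p = 0.0358 by limma). Setd2, which writes the histone mark that DNMT3 enzymes read, rose by 0.53 ± 0.08 (adjusted p = 0.0454) and Cbx5 fell by 0.48 (adjusted p = 0.0445) in KD ESC, both without overlap. Trim28, the partner of ZFP57, was at 6.94 and 9.27 FPKM in control embryos, 12.6 to 35.2 in KO embryos, 19.4 to 23.7 in KO arrest, 209 and 190 in control ESC and 171 and 189 in KD ESC. Both control embryos lay below all other libraries, with control embryos below control ESC by −4.47 ± 0.42 (adjusted p = 2.35e-05 by limma). In that comparison 4 of the 12 were lower and 1, Kdm1b, was higher, against 40.8% and 12.6% of all genes.

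Oxidation and base excision partners (21 genes) had 16 members above the filter in embryos. In KO embryos 0 were called, against 6.36% of all genes. In KO arrest against control 2 rose and 1 fell, where 16.4% of all genes rose and 8.87% fell. Apex1, the endonuclease that acts after a glycosylase, was listed at 0 in control embryo 1 and at 1.35 FPKM in control embryo 2, and at 10.4, 49.3 and 16.9 in KO arrest (3.83 ± 0.77, adjusted p = 0.0057 by limma). Polb, the polymerase that fills the gap, was at 28.2, 36.3 and 41.1 FPKM in KO arrest, above 3.09 and 10.1 in the controls and 1.51 to 7.59 in KO embryos. It rose against both groups, by 2.41 ± 0.67 (adjusted p = 0.0248) and 2.84 ± 0.60 (adjusted p = 0.0195). Gadd45a, a stress-induced gene linked to demethylation, was at 6.68, 1.33 and 2.84 FPKM in KO arrest and 15.5 to 68.5 in the other embryo libraries. It fell against both groups, by 2.52 (adjusted p = 0.0171) and by 3.39 (adjusted p = 0.0082). In KD ESC 1 of 19 tested members was called, against 6.23% of all genes. It was Parp1, which fell by 0.62 (adjusted p = 0.0457 by limma). Between control embryos and control ESC 11 of 20 were lower and 0 higher, against 40.8% and 12.6% of all genes, and 4 of the 11 passed the filter only through ESC libraries and so had to differ.

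Readers of methylated CpG (7 genes, 4 above the filter in embryos) gave 1 call on Dcaf11 loss, in KO arrest against control, where 25.2% of all genes were called. Mbd2 was listed at 0 in all 3 KO arrest libraries and at 8.43 and 2.84 FPKM in the controls, and fell by 2.59 on the log2(FPKM + 1) scale (adjusted p = 0.0179 by limma). The KO embryos were between, at 4.51, 1.66 and 0.706. In KD ESC 0 of the 7 were called, against 6.23% of all genes. In control embryos 4 of 7 were lower than in control ESC, against 40.8% of all genes, and 3 of these 4 passed the filter only through ESC. The genes that supply methyl groups (11 genes, 10 tested in embryos) held 2 that rose in KO embryos and 3 in KO arrest against control, where 4.86% and 16.4% of all genes rose. Mat2a makes S-adenosylmethionine, the methyl donor. It was at 21.2 and 42.6 FPKM in control embryos, 147, 127 and 136 in KO embryos and 118, 263 and 252 in KO arrest libraries. All 6 knock-out libraries lay above both controls, with rises of 2.14 ± 0.46 (adjusted p = 0.0271 by limma) and 2.68 ± 0.46 (adjusted p = 0.0028). Shmt1 rose in KO embryos, 23.2 to 28.2 FPKM against 0.518 and 5.89 (adjusted p = 0.0313). Mthfd1, an enzyme of folate metabolism, rose in KO arrest, 3.10, 3.29 and 3.43 FPKM against 0.0344 and 0.198 in the controls (1.94 ± 0.55, adjusted p = 0.0273). Tyms, thymidylate synthase, rose in KO arrest against control by 3.74 ± 0.77 (adjusted p = 0.0066) and against KO embryos by 2.98 ± 0.69 (adjusted p = 0.0263). Mat2b, the regulatory subunit of the MAT2A enzyme, fell in KO arrest against KO embryos by 1.66 (adjusted p = 0.0260). In KD ESC 0 of the 11 were called, against 6.23% of all genes.

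These partner calls depend on single libraries, on control embryo 1 above all. Without it the 3 calls in KO embryos were lost, Cdca7 at 1.83 (adjusted p = 0.121 by limma), Mat2a at 1.66 (adjusted p = 0.0872) and Shmt1 at 1.96 (adjusted p = 0.0915). Of the partner calls in KO arrest against control, Cdca7 at 2.28 (adjusted p = 0.0302), Apex1 at 3.21 (adjusted p = 0.0303), Mat2a at 2.19 (adjusted p = 0.0143) and Tyms at 2.54 (adjusted p = 0.0311) held without it. Dppa3 at 1.06 (adjusted p = 0.134), Cbx5 at 2.17 (adjusted p = 0.105), Polb at 1.69 (adjusted p = 0.130), Gadd45a at −2.01 (adjusted p = 0.0921), Mbd2 at −1.94 (adjusted p = 0.0990) and Mthfd1 at 1.83 (adjusted p = 0.0902) did not. Of the other libraries, KO arrest 2 also mattered: without it Dppa3, Cbx5, Polb, Gadd45a, Mbd2 and Mthfd1 had adjusted p-values from 0.0554 to 0.0921, and Cdca7, Apex1, Mat2a and Tyms were still called. Without KO arrest 3, Dppa3, Cbx5, Polb, Mbd2 and Mthfd1 had adjusted p-values from 0.0518 to 0.0762, and without KO arrest 1 Cbx5 had 0.0578. In KO embryos against control, leaving out KO embryo 1, 2 or 3 also ended the 3 calls, at adjusted p-values from 0.0684 to 0.129. So did KO arrest 1, 2 or 3 for Cdca7 (0.0528 to 0.0751) and KO arrest 2 for Shmt1 (0.0607), through the shared estimate of spread.

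Against the KO embryos, Gadd45a was called in KO arrest when any 1 library was left out. Kdm1b and Tyms were not called when any 1 KO embryo or KO arrest library was left out, at adjusted p-values from 0.0744 to 0.133 and from 0.0604 to 0.105. Mat2b was not called without KO embryo 1, 2 or 3 or KO arrest 1 or 3 (0.0552 to 0.105), nor Polb without KO embryo 2 or 3 or KO arrest 2 or 3 (0.0633 to 0.0779). In ESC, leaving out control ESC 1 or 2 ended the calls of Dppa3 (0.0667 and 0.0699), Hdac1, Cbx5, Setd2 and Parp1 (0.182 to 0.235). Leaving out KD ESC 1 ended those of Hdac1, Cbx5, Setd2 and Parp1 (0.0574 to 0.0893), and leaving out KD ESC 2 those of Cbx5 and Setd2 (0.0501 and 0.0597). The size of each of these differences stayed within 1.5 times of the value with all libraries.

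Other settings ended some of these calls as well. In KO embryos Cdca7, Mat2a and Shmt1 were not called after median-of-ratios scaling (adjusted p = 0.0693, 0.0720 and 0.0570), without the filter (0.0645 to 0.0728) or with the replicate block (0.0788 to 0.103), nor Cdca7 and Shmt1 with only the groups compared (0.106 and 0.0689) or Shmt1 with a pseudocount of 0.1 (0.0517). For KO arrest against control, Cbx5 and Polb were not called in TPM (0.0823 and 0.0786), and Dppa3 (0.227), Cbx5, Polb, Mbd2 and Mthfd1 (0.0531 to 0.0742) were not called without the filter. The replicate block ended the calls of Dppa3, Gadd45a, Mbd2 and Mthfd1 (0.0508 to 0.0954), only the groups compared those of Gadd45a and Mthfd1 (0.0517 and 0.0558), and quantile normalization that of Mthfd1 (0.0548). Between KO arrest and KO embryos, Kdm1b, Polb, Mat2b and Tyms were not called without the filter (0.0511 to 0.0690), Kdm1b and Tyms with the block (0.0853 and 0.0552), Tyms with a pseudocount of 0.1 or in TPM (0.1002 and 0.0786), and Mat2b with all 12 libraries in 1 fit (0.0655). In ESC, Cbx5, Setd2 and Parp1 were not called in TPM (0.0520 each) or without the filter (0.0592 to 0.0603), Cbx5 after median-of-ratios scaling (0.0515) and Parp1 with a pseudocount of 0.1 (0.0505). Hdac1, Cbx5, Setd2 and Parp1 were not called with the block (0.0811 to 0.109) or with all 12 libraries in 1 fit (adjusted p = 1).

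Of all genes called between control embryos and control ESC 76.4% were lower in embryos, and the genes of the 5 lists were mostly lower too. Of the 33 list genes called lower, 8 passed the filter only through ESC libraries, so that they had to differ, with sizes that depend on the pseudocount. Among those with the smallest p-values in each list were Cdca7 (−4.23), Usp7 (−1.63) and Dppa3 for maintenance, Trim28, Cbx5 (−4.41) and Nsd1 (−1.89) for de novo and silencing partners, Cxxc5 (−4.76), Neil1 (−2.10) and Parp1 (−3.06) for oxidation and repair, Zbtb38 (−4.33) and Zbtb4 (−1.47) for readers, and Ahcy (−5.83), Mthfd1 (−3.62) and Mat2a (−2.94) for methyl donor supply. Ahcy, which clears the product of methyl transfer, was at 60.2 and 65.3 FPKM in control ESC, 52.3 and 50.7 in KD ESC and at most 2.51 in the embryo libraries. The direction of Zbtb4 turned after quantile normalization (0.16, adjusted p = 0.739 by limma). Cxxc5, Neil1, Zbtb38, Zbtb4 and Ahcy are among these 8, and Neil1, a glycosylase, was listed at 0 in all 8 embryo libraries, so its −2.10 is set by the pseudocount (−5.07 with one of 0.1). In that comparison the median was −2.79 for the 10 genes and −1.26 to −2.89 for the 5 lists, where that of all genes was −1.01.

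Median log2 differences in KO arrest against control were 0.46 for the 10 genes, 0.98 for maintenance partners, 0.06 for de novo and silencing partners, 1.00 for oxidation and repair partners, −0.16 for readers and 1.13 for methyl donor supply, where the median of all genes was 0.45.

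**Figure D4:**
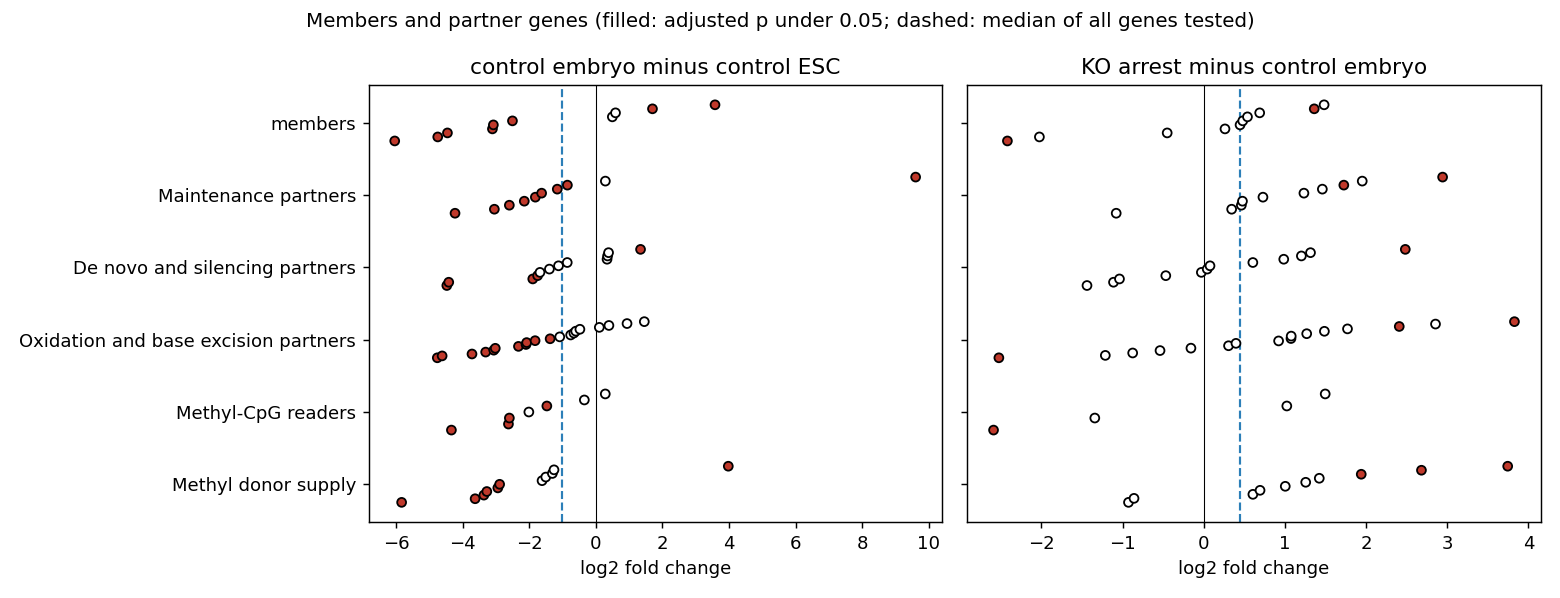
Log2 differences (x axis, log2(FPKM + 1) scale) of the 10 genes and of the genes of 5 partner lists, 1 point per gene, in control embryo against control ESC (left) and KO arrest against control embryo (right). Filled points have an adjusted p under 0.05 and the dashed line is the median of all genes tested, −1.01 on the left and 0.45 on the right.

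The choice of scaling moved the median of all genes. The median of all genes in KO embryos against controls was 0.31 in FPKM and 0.05 after median-of-ratios scaling, and in KO arrest against controls it was 0.45 in FPKM, 0.24 after median-of-ratios scaling and 0.10 in TPM. Of all genes called, 76.4% were higher in KO embryos than in controls (46.4% after median-of-ratios scaling, 56.9% after quantile normalization), and 64.9% in KO arrest (53.4%, and 48.9% after quantile normalization, 50% in TPM). Between KO arrest and KO embryos 57.4% were higher (29.0% in TPM, 47.1% after quantile normalization), and in KD ESC 41.6% (53.3% after median-of-ratios scaling). Between control embryos and control ESC 23.6% were higher, and 45.7% after quantile normalization, which also moved the median of all genes from −1.01 to −0.08. The directions of Zfp57 and Tet3 in KO arrest and of Dnmt3b in KD ESC were the same under each of these scalings. So was that of Tdg in KO arrest, which carries no weight, since Tdg passed the filter only through those libraries.

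The genes whose levels ran most like 4 of the members over the 12 libraries were found by the smallest root mean square difference of log2(FPKM + 1), each gene centred on its own mean, among 13075 genes. For Dnmt1 they were Ticrr, Tmem109 and Ephb3, at 0.236 to 0.286. Ticrr was at 6.83 to 24.1 FPKM in embryos and 47.7 to 64.2 in ESC. For Dnmt3b they were Fam102a, Ttf2 and Tfeb, at 0.431 to 0.451, and Tfeb also had KD values (6.79 and 6.21 FPKM) below its control ESC values (17.5 and 15.3). For Tet3 they were Acsl3, Cebpg and Nfxl1, at 0.328 to 0.411, and Nfxl1 was at 6.02, 4.06 and 0.739 FPKM in KO arrest against 15.0 to 21.1 in the other embryo libraries. For Dnmt3l they were Rnf103, Abcf2 and Tor1a, at 0.616 to 0.638, a looser match. Within the 10 genes the closest pairs were Dnmt3b with Tdg (0.743), Dnmt1 with Tdg (0.801), Dnmt1 with Dnmt3b (0.841) and Uhrf1 with Tet2 (0.914). These distances share the embryo-to-ESC contrast in all 12 libraries and carry no test.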

How the data were processed

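RNA of 12 Smart-seq2 libraries was measured in 5 groups (2, 3, 3, 2 and 2 libraries). Gene tables with FPKM, TPM and coverage (signal, mean reads over a gene's bases) were deposited by the authors, per the file headers, 1 table per library. The submitters' processing notes list STAR (given as version 0.6.0), StringTie, DESeq2 and mm9. For the task of each tool, its settings, the annotation and the read strand: not given in the sources used here. Sample columns without a map to a sample numbered 0.

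Rows without a gene symbol, 0.549% to 1.19% of a library's FPKM, were left out, and symbols listed at several loci were summed, which left 22619 symbols. The deposited FPKM values are not counts, so no count model was used. Read totals are not in the tables, so depth is known only as relative coverage (0.373 to 2.01) and no counting interval is given. Genes reaching 1 FPKM in 2 or more libraries of a fit were tested on log2(FPKM + 1) with limma 3.58.1 in R 4.3.3 (mean-variance trend, two-sided, Benjamini-Hochberg, threshold 0.05). The fits held the 8 embryo libraries (5 residual degrees of freedom), the 4 ESC libraries (2), or all 12 (7) for embryo against ESC and for differences of effects. The difference between the KO arrest and knock-down effects was added after the data were seen. Fold changes on this scale understate changes of low genes. Shares within a library were compared by exact permutation tests (scipy 1.17.1). Tables and figures used pandas 2.3.3, numpy 2.4.6 and matplotlib 3.10.9 under Python 3.11.15, and the fits were tested on simulated data.

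The members and the gene lists were chosen with earlier results of these data known. All 10 members are named in every comparison. From each partner list up to 3 called genes with the smallest p per comparison are named (1 of them is not reported here), and the 3 most alike genes for Dnmt1, Dnmt3b, Dnmt3l and Tet3. Promoter sequences come from a RefSeq table of GRCm38.p6, and gene positions are those of the deposited tables (mm9), which were not mixed.

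Alternatives were a pseudocount of 0.1, no filter, deposited TPM, median-of-ratios scaling, quantile normalization, the replicate number as a block, all 12 libraries in 1 fit, only the groups compared, and each library left out. A group left with 1 library was assumed to vary like the others.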

Additional observations from a re-analysis of the deposited data

Results flagged for a closer look

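Dcaf11 knock out in embryos and knock down in ESC differed in effect for 1 of the 10 genes and 4 of their partners. The difference of the effects was tested with limma, adjusted over all genes. Knock out against knock down, mouse strain and material differ together here and cannot be told apart. Over all genes 14% differed for KO arrest and 2.69% for KO embryos, so 1 of 10 is near the background and is not read as a result about the 10 genes. For KO arrest 1 of 10 maintenance partners and 3 of 11 methyl donor genes differed. It was 0 of 12 de novo and silencing partners, 0 of 20 oxidation and repair partners and 0 of 7 readers. For KO embryos 1 of 10 maintenance partners differed, and 0 in each other list. These small counts are not read as a result about the lists. Values are log2 differences of effects on the log2(FPKM + 1) scale. Zfp57 differed by −4.57 ± 1.28 (SE) between KO arrest and knock down (adjusted p = 0.0416 by limma), and by −2.68 (adjusted p = 0.0469) without KD ESC 2. Cdca7 differed by 3.27 ± 0.69 for KO embryos (adjusted p = 0.0410 by limma) and by 3.72 ± 0.69 for KO arrest (adjusted p = 0.0083), since it was higher after knock out in embryos and lower in value, without a call, after knock down in ESC. Mat2a differed by 2.20 ± 0.57 for KO arrest (adjusted p = 0.0304 by limma), Mthfd1 by 2.41 ± 0.50 (adjusted p = 0.0130) and Tyms by 3.81 ± 0.98 (adjusted p = 0.0303).

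Without control embryo 1 the values were 2.61 (adjusted p = 0.0469 by limma) and 3.06 (adjusted p = 0.0117) for Cdca7 in KO embryos and KO arrest, 2.31 (adjusted p = 0.0202) for Mthfd1, 2.61 (adjusted p = 0.0395) for Tyms and 1.71 for Mat2a, which was then not called (adjusted p = 0.0630). Leaving out either control ESC or KD ESC 1 ended the calls of Mthfd1, at adjusted p-values from 0.0630 to 0.0755. For Mat2a and Tyms, leaving out any 1 ESC library, KO arrest 2 or KO arrest 3 did so, at adjusted p-values from 0.0508 to 0.111. Cdca7 in KO embryos lost its call without any 1 ESC library, any 1 KO embryo or KO arrest 2, at adjusted p-values from 0.0538 to 0.193. It was also lost with a pseudocount of 0.1 (0.0616), in TPM (0.0502), after median-of-ratios scaling (0.0664), with the replicate block (0.0974) and with only the groups compared (0.0511). Mat2a was lost in TPM (0.0575), after median-of-ratios scaling (0.0723) and quantile normalization (0.0664), with the block (0.0505) and with only the groups compared (0.0620). Tyms was lost with a pseudocount of 0.1 (0.0744), in TPM (0.0744) and with the block (0.0723). Zfp57 was lost without the filter (0.0645), with the block (0.0624) and with only the groups compared (0.0768), and without most single libraries. The comparisons with KO embryos and with KO arrest share the control embryos and all ESC libraries.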

How the results depend on the processing

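Of 1153 alternative values of the 70 member differences, 1045 kept direction and side of the threshold, 37 lost a call, 26 gained one and 45 changed sign. The 12 called member differences kept their direction in all 212 alternatives and lost the call in 37. They include Tdg in KO arrest against control, which had to differ, so that its kept direction supports nothing. The 43 named partner differences lost the call in 159 of 723 and changed sign in 1. The cause of these changes was not tested. Tdg had no value in the embryo comparisons without KO arrest 1 or 3, since it was then under the filter.

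Counts of called members in KO arrest against control embryos (2) were 1 with the replicate block and 1 with only the groups compared. In KO arrest against KO embryos (0) they were 1, Zfp57, in TPM, after quantile normalization and with only the groups compared. They were 1, Tdg, without the filter, and 2, Tet3 and Tdg, with all 12 libraries in 1 fit. Tdg was near 0 in KO embryos and passed the main embryo filter only through KO arrest, so its calls carry no weight. In KD ESC (1) they were 0 with the replicate block and in the fit of all 12. For the KO arrest effect against the knock-down effect (1) they were 2 with a pseudocount of 0.1, after median-of-ratios scaling and after quantile normalization, and 0 without the filter, with the block and with only the groups compared. With each library left out the counts ran from 0 to 1 for KO embryos, 1 to 2 and 0 to 1 for KO arrest against control and KO embryos, 0 to 1 for KD ESC, and 0 to 1 and 0 to 2 for both differences of effects.

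Signs changed under other settings only for differences that were not called, apart from Zbtb4 in control embryos against ESC (0.16 after quantile normalization). In KO embryos against control these were Dnmt3b (0.29 with a pseudocount of 0.1) and Tdg (−0.019 after quantile normalization). For KO arrest and control they were Dnmt3a (−0.20 in TPM, −0.073 after median-of-ratios scaling, −0.013 after quantile normalization) and Dnmt1 (−0.19 after quantile normalization). For KO arrest and KO embryos they were Tet2 (−0.00084 with a pseudocount of 0.1, −0.35 in TPM, −0.021 after quantile normalization) and Dnmt3l (−0.33 in TPM). For the differences of effects they were Tdg in KO embryos (0.074 with a pseudocount of 0.1) and Uhrf1 in KO arrest (0.18 with the replicate block).

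Leaving out 1 library changed the sign of these, given as lowest to highest. In KO embryos against control: Dnmt3l −0.56 to 3.33, Uhrf1 −0.34 to 1.93, Dnmt3b −1.01 to 0.80 and Tet3 −0.82 to 0.37. KO arrest and control: Dnmt1 −0.074 to 0.97, Dnmt3b −0.22 to 1.60, Dnmt3l −0.46 to 3.43, Uhrf1 −1.59 to 0.69 and Tet1 −0.25 to 1.21. KO arrest and KO embryos: Tet2 −0.29 to 0.39 and Dnmt3l −0.30 to 0.42. In KD ESC: Dnmt3l −0.59 to 1.84, Tet2 −0.035 to 0.046 and Tdg −0.025 to 0.32. In control embryos against ESC: Dnmt3l −1.35 to 2.53. For the KO embryo effect against knock down: Dnmt3l −1.18 to 2.71 and Tdg −0.29 to 0.056. For the KO arrest effect against knock down: Dnmt3l −1.08 to 2.80, Uhrf1 −1.18 to 1.09 and Tet1 −0.016 to 1.44. The Tet3 share of TET in KO embryos against control ran from −38.1 to 4.04 percentage points. The Dnmt1 share of DNMT ran from −1.78 to 12.9, from −4.67 to 10.03 and from −5.76 to 0.751 in the 3 embryo comparisons.

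Replicate numbers are shared by the groups but did not pair the libraries: same-number correlations of deviations across genes ran from −0.0995 to 0.0246 in embryos and were −0.0133 in ESC. With the replicate block, calls over all genes fell to 76 of 750 (KO embryos), 1965 of 2976 (KO arrest against control), 26 of 764 (KD ESC), 127 of 388 and 1279 of 2028 (differences of effects). In the same order, the lowest and highest counts with 1 library left out were 87 and 1817, 1983 and 3636, 13 and 686, 39 and 2020, and 716 and 3592. KO arrest against KO embryos ranged from 285 to 2023 (1012 with all), with 456 without the filter and 2081 with all 12 in 1 fit. That fit gave 1709 calls in KO embryos.

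Depth is known only as relative coverage, so values under 1 FPKM in single libraries have no stated precision. With 2 or 3 libraries a group, a difference short of the threshold is not shown to be absent.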

Other observations

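Trdmt1, which has the fold of a DNA methyltransferase and methylates transfer RNA, was called in 0 comparisons. It was at 0.131 and 6.12 FPKM in the control embryos, listed at 0 and at 0.115 and 0.496 in the KO embryos, at 6.91, 5.79 and 1.30 in the KO arrest libraries, at 2.39 and 2.70 in control ESC and at 2.87 and 3.29 in KD ESC. All 3 KO arrest values lay above all 3 KO embryo values, a difference of 2.07 ± 0.76 on the log2(FPKM + 1) scale (adjusted p = 0.117 by limma, with an unadjusted p under 0.05). The 2 control embryos lay far apart.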
